A study of Homo sapiens with 6 samples.

Results

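The genes described are 10 markers of neuroendocrine and neuronal cells, CHGA, CHGB, SCG2, SCG5, NTS, SYP, SYT4, ENO2, TUBB3 and REST, out of 23354 genes in the read-count table. They were chosen by name, and each symbol matched 1 row. RNA was sequenced from LNCaP, an androgen-sensitive human prostate cancer cell line with a luminal epithelial character. The 3 DHT+WBM libraries came from cells given 1 nM dihydrotestosterone (DHT, a potent androgen) together with an extract of white button mushroom (WBM, Agaricus bisporus) at 3 µL/mL for 48 h. The 3 DHT libraries came from cells given the same DHT for the same time with no extract. All 6 libraries therefore carry DHT, and the labels name no vehicle in place of the extract. The question posed was whether the mushroom extract interferes with the androgen receptor, and DHT+WBM was set against DHT. Whether the triplicates came from separate cultures is not stated, so a p-value here reflects the spread among libraries, which may be technical. All libraries come from 1 cell line, and none without DHT was analysed here.

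Neuroendocrine cells store peptide hormones in dense-core granules and release them on a calcium signal. The granin, vesicle and peptide genes listed here belong to that route, and ENO2, TUBB3 and REST do not. Granins package the cargo, synaptophysin and synaptotagmins belong to the vesicle membrane, and REST is the zinc finger repressor that keeps many neuronal genes silent outside neurons by binding a DNA element called RE1. In prostate cancer, loss of androgen signalling can be accompanied by a gain of neuroendocrine features, and LNCaP cells deprived of androgen are a common model of that change. Chromogranin A, synaptophysin and neuron-specific enolase are among the markers that have been used for it in pathology.

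Of the 10 genes, 5 had enough reads to be tested. ENO2 was 2.48-fold higher in DHT+WBM and TUBB3 was 1.13-fold higher, while SYT4 was 1.33-fold lower and REST 1.13-fold lower. SYP, the other tested gene, did not pass the test. The remaining 5 genes, CHGA, CHGB, SCG2, SCG5 and NTS, held between 0 and 7 reads per library and are too low to judge. By edgeR's quasi-likelihood test, 58.2% of all 13466 tested genes passed an adjusted p under 0.05 in this comparison, 29.2% as higher and 29% as lower, so calls were common among genes at large. The libraries of the groups did not overlap for 4 of the 5 tested markers, and for 62.2% of all tested genes. The median log2 fold change was 0.18 over the 5 tested markers and 0.00286 over all tested genes. Only ENO2 of the markers exceeded 2-fold, which 3.27% of all tested genes did as a called rise.

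The promoters of the 4 genes that passed the test are shown first, with that of the near-silent CHGA for contrast. Each window is 300 bases, 250 before and 50 after a RefSeq transcription start on GRCh38.p14, printed 5′ to 3′ on the gene's strand. RefSeq promoters were found for 8 of the 10 genes in 10 windows, and where a gene had more than 1 start the window holding a searched motif is printed. Capitals mark matches on either strand to the left arm of RE1 (TCAGCACC), the right arm of RE1 (GGACAG), the cyclic AMP response element (CRE, TGACGTCA), the AP-1 site (TGACTCA) and the core of the antioxidant response element (TGACNNNGC). The last 3 share the letters TGAC, so their matches can overlap.
ENO2 (chr12:6914330-6914629, plus strand): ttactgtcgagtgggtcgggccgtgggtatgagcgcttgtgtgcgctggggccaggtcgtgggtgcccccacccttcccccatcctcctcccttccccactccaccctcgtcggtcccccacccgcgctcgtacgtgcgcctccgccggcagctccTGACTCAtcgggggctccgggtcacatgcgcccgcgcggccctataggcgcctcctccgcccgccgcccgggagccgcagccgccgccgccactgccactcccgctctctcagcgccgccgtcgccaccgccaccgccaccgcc
TUBB3 (chr16:89921675-89921974, plus strand): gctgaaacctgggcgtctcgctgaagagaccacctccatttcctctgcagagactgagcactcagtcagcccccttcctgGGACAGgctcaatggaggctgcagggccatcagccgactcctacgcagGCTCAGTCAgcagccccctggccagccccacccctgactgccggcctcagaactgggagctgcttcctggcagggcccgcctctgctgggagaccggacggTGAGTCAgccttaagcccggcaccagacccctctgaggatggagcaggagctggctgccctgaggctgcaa
SYT4 (chr18:43277441-43277740, minus strand): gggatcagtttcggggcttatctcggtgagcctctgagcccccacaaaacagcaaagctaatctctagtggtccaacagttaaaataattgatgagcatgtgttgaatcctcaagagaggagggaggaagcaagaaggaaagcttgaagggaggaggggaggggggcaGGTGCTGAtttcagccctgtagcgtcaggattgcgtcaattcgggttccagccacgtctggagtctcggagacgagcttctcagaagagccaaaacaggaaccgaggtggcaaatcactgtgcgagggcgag
REST (chr4:56908660-56908959, plus strand): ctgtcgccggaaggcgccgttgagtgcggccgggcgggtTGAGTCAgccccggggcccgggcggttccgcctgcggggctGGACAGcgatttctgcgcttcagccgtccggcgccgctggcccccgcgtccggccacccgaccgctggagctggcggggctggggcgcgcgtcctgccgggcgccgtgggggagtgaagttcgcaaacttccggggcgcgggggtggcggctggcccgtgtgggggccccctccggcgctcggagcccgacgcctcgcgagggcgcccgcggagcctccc
CHGA (chr14:92922900-92923199, plus strand): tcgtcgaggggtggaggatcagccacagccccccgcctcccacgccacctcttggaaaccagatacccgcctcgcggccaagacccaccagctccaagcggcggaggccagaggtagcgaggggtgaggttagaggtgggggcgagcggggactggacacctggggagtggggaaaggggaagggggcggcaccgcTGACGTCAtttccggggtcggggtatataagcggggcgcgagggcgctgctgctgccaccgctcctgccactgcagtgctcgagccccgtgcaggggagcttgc

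The ENO2 window held an AP-1 match 94 bases before the start, a motif found in 4.95% of all 35116 promoter windows. The TUBB3 window held an AP-1 match 21 bases before the start, a right RE1 arm and an antioxidant core, and the REST window held an AP-1 match and a right RE1 arm. Right RE1 arms were found in 20.5% of all windows and antioxidant cores in 13.3%. The other windows of TUBB3 and REST held no searched motif. The printed windows of both genes were chosen for holding a match, so shares over all windows cannot be set against them. The SYT4 window held the left RE1 arm, on the opposite strand and 82 bases before the start, which 1.67% of all windows hold. The CHGA window held the full CRE 54 bases before the start, which 1.85% hold. The core hexamer of the androgen receptor element, AGAACA, was also searched for and was found in 14.8% of all windows and in no window of these genes. The windows of SYP, SCG5 and NTS, which are not printed, held no searched motif. All matches given here describe letters in the windows and do not show binding.

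ENO2 encodes gamma-enolase, the neuron-specific form of a glycolytic enzyme, and it had the largest fold change among the 5 tested markers. The gene lies on chromosome 12 from 7023614 to 7032859 on the plus strand (hg19). It had 14.8, 19.1 and 15.3 CPM (read counts normalised with TMM-adjusted library sizes) in the DHT+WBM libraries, against 6.73, 6.24 and 6.78 CPM in the DHT libraries. Every DHT+WBM library stood above every DHT library, and DHT+WBM replicate 2 was the highest. The reads behind these values numbered 304 to 371 per DHT+WBM library and 124 to 141 per DHT library. The log2 fold change was 1.31 ± 0.10 (SE; 95% interval 1.11 to 1.51; edgeR adjusted p = 2.12e-14), and 98.4% of all tested genes had a lower value.

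Enolase reads come mostly from ENO1, the form that most tissues use. ENO1 averaged 1979 ± 6.97 CPM in DHT+WBM and 1797 ± 31.4 CPM in DHT (SD, n = 3 each), a log2 fold change of 0.14 ± 0.04. ENO3, the muscle form, averaged 2.90 ± 0.57 CPM in DHT+WBM and 3.18 ± 0.14 CPM in DHT and did not pass the test. The ENO2 share of reads over the 3 enolase genes was 0.744%, 0.948% and 0.767% in DHT+WBM, against 0.377%, 0.349% and 0.368% in DHT. This share does not depend on the scaling between libraries, and its groups did not overlap (two-sided exact permutation p = 0.1, the smallest that 3 against 3 libraries allow). ENO2 held at most 0.948% of enolase reads in any library.

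TUBB3 encodes class III beta-tubulin, an isotype typical of neurons that also appears in some carcinomas. It lies on chromosome 16 from 89985259 to 90002505 on the plus strand. It had 38.5, 35.1 and 35.2 CPM in the DHT+WBM libraries, against 32.1, 29.7 and 34.04 CPM in the DHT libraries. The groups did not overlap, but the lowest DHT+WBM library stood only slightly above DHT replicate 3. The log2 fold change was 0.18 ± 0.06 (SE; 95% interval 0.06 to 0.30; edgeR adjusted p = 0.00947). This call was lost without DHT+WBM replicate 1, where the log2 fold change was 0.13 (edgeR adjusted p = 0.112), and without DHT replicate 2, where it was also 0.13 (edgeR adjusted p = 0.0651). The span of TUBB3 overlaps that of MC1R on the same strand by 2127 bases. MC1R had 3 to 14 reads in DHT+WBM libraries and 3 to 23 in DHT libraries. TUBB3 had 683 to 789 reads in DHT+WBM libraries and 591 to 698 in DHT libraries. Tubulin genes also resemble each other in sequence, so the split of reads among these genes is uncertain.

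The other beta-tubulins moved in different directions. TUBB, which held most beta-tubulin reads, averaged 1321 ± 13.8 CPM in DHT+WBM and 1867 ± 33.2 CPM in DHT, a log2 fold change of -0.50 ± 0.04. TUBB4A, an isotype typical of brain, averaged 62.8 ± 2.98 CPM in DHT+WBM and 32.5 ± 0.51 CPM in DHT, a log2 fold change of 0.95 ± 0.05. TUBB6 was 1.28-fold higher and TUBB2A 1.21-fold higher, and TUBB4B did not pass the test. The call for TUBB2A was lost by DESeq2 (adjusted p = 0.0987), without DHT+WBM replicate 1 (edgeR adjusted p = 0.0744), without DHT+WBM replicate 2 (edgeR adjusted p = 0.114) and without DHT replicate 2 (edgeR adjusted p = 0.0652). TUBB4B passed as higher with library totals alone, at 0.11 (edgeR adjusted p = 0.0201), and without DHT replicate 3, at 0.09 (edgeR adjusted p = 0.0477). TUBB2B, another neuronal isotype, was below the filter, with 9, 14 and 15 reads in DHT+WBM and 0, 4 and 1 in DHT, a ratio of 7.55 with an exact 95% counting interval of 2.97 to 24.6. TUBB1 held at most 2 reads in any library.

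Within the family, TUBB3 took 1.76 ± 0.08% of beta-tubulin reads in DHT+WBM and 1.26 ± 0.06% in DHT (SD, n = 3 each; exact permutation p = 0.1, the smallest possible). TUBB took 64.1 ± 0.29% in DHT+WBM and 73.7 ± 0.78% in DHT. The shares of TUBB4A, at 3.05% in DHT+WBM and 1.28% in DHT, and of TUBB6, at 3.39% in DHT+WBM and 2.15% in DHT, moved the way of TUBB3. A share within a family falls for 1 gene as it grows for the others, so these values show unequal change and not which gene changed.

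**Figure D1:**
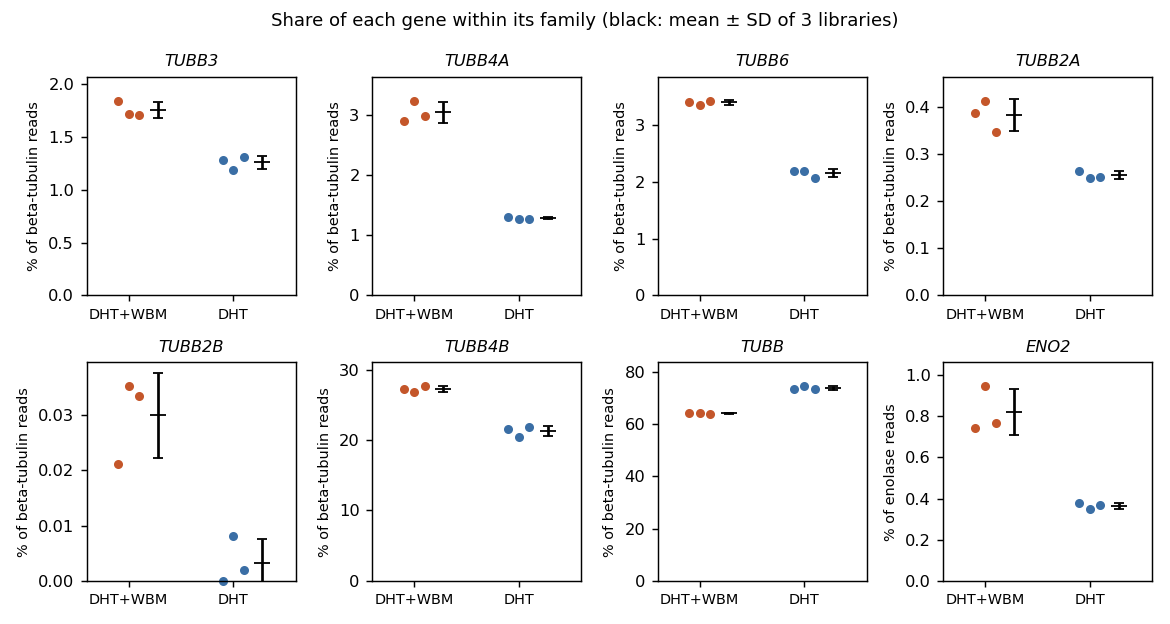
Share of beta-tubulin reads for 7 beta-tubulin genes, and of enolase reads for ENO2, in each library (vertical axes in percent, each starting at 0). Coloured points are libraries and black bars are mean ± SD over 3 libraries of a group; TUBB took a smaller share and the other genes shown took larger shares in DHT+WBM.

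SYT4 encodes synaptotagmin 4, a vesicle membrane protein of the family that couples calcium to vesicle fusion. It lies on chromosome 18 from 40847857 to 40857615 on the minus strand. It held the most reads of the markers, with 21100 to 23788 reads in each DHT+WBM library and 28724 to 30278 in each DHT library. By CPM it ranked 54 among all 23354 genes in DHT+WBM and 32 in DHT. Its levels were 1029, 1103 and 1095 CPM in the DHT+WBM libraries, against 1446, 1460 and 1401 CPM in the DHT libraries. Every DHT+WBM library was below every DHT library, with a log2 fold change of -0.42 ± 0.04 (SE; 95% interval -0.49 to -0.34; edgeR adjusted p = 5.51e-12).

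SYP encodes synaptophysin, a membrane protein of synaptic vesicles, and lies on chromosome X from 49044265 to 49056661 on the minus strand. It was just detectable, with 36, 26 and 33 reads in the DHT+WBM libraries and 29, 26 and 26 in the DHT libraries. In normalised terms these were 1.75, 1.34 and 1.52 CPM in DHT+WBM and 1.39, 1.31 and 1.27 CPM in DHT, and the groups overlapped. The log2 fold change was 0.22 ± 0.22 (edgeR adjusted p = 0.404). Its 95% interval ran from -0.23 to 0.67, which holds both falls and rises.

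REST lies on chromosome 4 from 57774042 to 57832976 on the plus strand and encodes the RE1-silencing repressor. It had 121, 125 and 125 CPM in the DHT+WBM libraries, against 133, 149 and 137 CPM in the DHT libraries. All DHT+WBM libraries were lower than all DHT libraries. The log2 fold change was -0.17 ± 0.04 (SE; 95% interval -0.26 to -0.09; edgeR adjusted p = 0.000789). The span of REST overlaps the opposite-strand gene NOA1 by 3461 bases. NOA1 had 798 to 953 reads in DHT+WBM libraries and 1115 to 1123 in DHT libraries, and without a known strand setting reads from the overlap cannot be told apart.

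The 4 granin-group markers CHGA, CHGB, SCG2 and SCG5, and neurotensin, were near or at 0. CHGA, the chromogranin A gene, had 0 reads in all 3 DHT+WBM libraries and 1, 1 and 0 in DHT. CHGB, which encodes chromogranin B, had 2, 2 and 3 reads in DHT+WBM and 4, 0 and 1 in DHT, a ratio of 1.39 with an exact 95% counting interval of 0.380 to 5.56. These values allow large changes in either direction.

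SCG2, the secretogranin II gene, had 5, 5 and 5 reads in DHT+WBM and 5, 5 and 7 in DHT, a ratio of 0.877 with an interval of 0.408 to 1.87. SCG5, which encodes the chaperone of the prohormone convertase PC2, had 2, 2 and 4 reads in DHT+WBM and 4, 4 and 0 in DHT, a ratio of 0.994 with an interval of 0.325 to 3.04. These intervals cover counting error only. NTS, the gene of the gut and brain peptide neurotensin, had 0 reads in all 6 libraries, which allows up to 0.0486 CPM over the DHT+WBM libraries and 0.0489 CPM over the DHT libraries (3 counts per group).

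**Figure D2:**
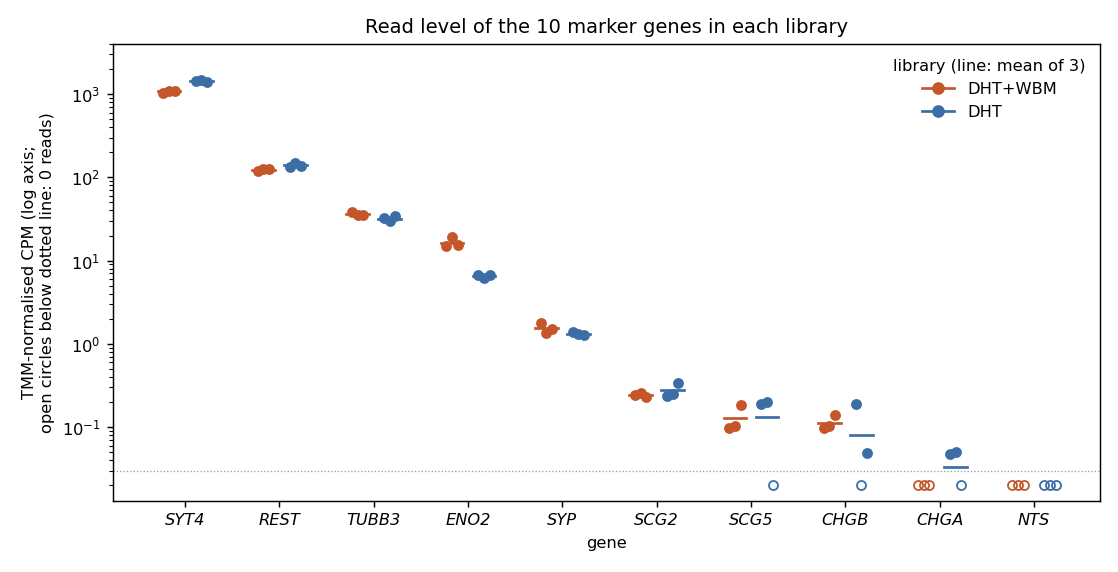
TMM-normalised CPM (log axis) of the 10 marker genes in each library, with short lines at group means. Open circles under the dotted line are libraries with 0 reads; ENO2 and TUBB3 stand higher and SYT4 and REST lower in DHT+WBM, and the genes from SCG2 rightwards lie below 1 CPM.

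Divided by gene length, the markers covered a wide range of levels. SYT4 stood first at 263 ± 9.98 CPM per kilobase in DHT+WBM and 351 ± 7.61 in DHT, followed by REST at 14.97 ± 0.33 in DHT+WBM and 16.9 ± 0.99 in DHT. TUBB3, at 5.58 ± 0.29, and ENO2, at 5.42 ± 0.77, differed by less than their spread in DHT+WBM. In DHT they were apart, with TUBB3 at 4.92 ± 0.33 and ENO2 at 2.177 ± 0.098 CPM per kilobase. SYP followed at 0.633 ± 0.087 in DHT+WBM and 0.544 ± 0.025 in DHT. SCG2 and SCG5 lay together near 0.1 CPM per kilobase in both groups, and CHGB, CHGA and NTS were lower still. Fewer cells expressing a gene and less RNA per cell cannot be told apart in these bulk libraries.

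**Figure D3:**
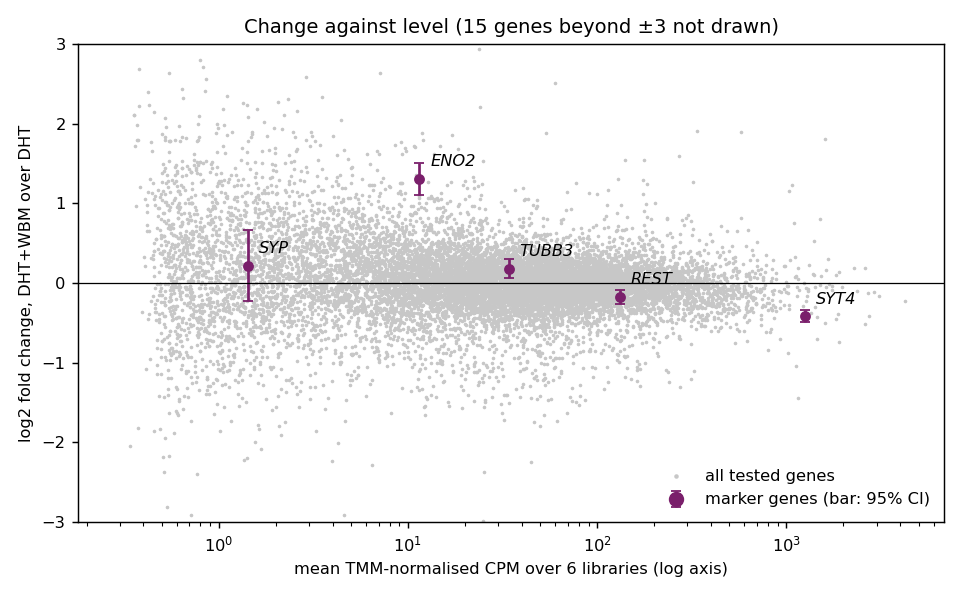
Log2 fold change of DHT+WBM over DHT against mean CPM over 6 libraries (log axis) for all tested genes (grey) and the 5 tested markers (purple, bars are 95% intervals). ENO2 lies above most genes of its level, SYT4 lies among the most abundant genes and is lower in DHT+WBM, and the interval of SYP spans 0.

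Other genes of the same routes were read from lists drawn up by function. Over all tested genes, 29.2% were called higher and 29% lower, and the counts of each list below stand beside those shares. Among granins and enzymes that process prohormones, 9 of 13 could be tested; 5 were higher, 2 were lower, and the tested genes had a median log2 fold change of 0.20. PAM, the enzyme that amidates peptide hormones, averaged 21.5 ± 1.07 CPM in DHT+WBM and 10.7 ± 0.43 CPM in DHT, a 2.01-fold rise (edgeR adjusted p = 3.48e-14). CPE, which trims the ends of prohormone fragments in granules, rose 1.25-fold, and CPD, a related carboxypeptidase of the Golgi, rose 1.15-fold. PCSK6, a prohormone convertase, fell 1.17-fold. Of the other granins, VGF averaged 7.57 ± 0.29 CPM in DHT+WBM and 6.29 ± 0.35 CPM in DHT (edgeR adjusted p = 0.0287). PCSK1N, which encodes the granin-like protein proSAAS, averaged 13.5 ± 0.84 CPM in DHT+WBM and 10.9 ± 1.82 CPM in DHT (edgeR adjusted p = 0.0050). Both are counted among the rises. The dedicated neuroendocrine convertases PCSK1 and PCSK2 held at most 1 read in any library. Without DHT+WBM replicate 1, or without DHT replicate 2, only 3 genes of this list rose. Of the 2 falls, 1 was left without DHT+WBM replicate 2 or 3 or DHT replicate 1 or 3, by DESeq2, and with upper-quartile factors or library totals alone.

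Among synaptic and granule release genes, 15 of 25 could be tested, 6 rose and 3 fell, with a median of 0.28. SYT11, another synaptotagmin, averaged 3.85 ± 1.14 CPM in DHT+WBM and 0.763 ± 0.201 CPM in DHT, which differed by 2.31 ± 0.23 on the log2 scale (edgeR adjusted p = 6.47e-11), opposite in direction to SYT4. SYNGR1, which encodes a relative of synaptophysin, rose 1.76-fold to 16.3 ± 0.40 CPM. RAB27A, a small GTPase of secretory granules, fell 1.41-fold. The fusion protein gene SNAP25, named here after its values were seen, had 4, 3 and 3 reads in DHT+WBM and 0 in each DHT library. It was below the filter. Taking 3 counts as the floor of the DHT group gives a ratio of 3.31. This ratio leaves out counting error in the DHT+WBM reads, so it is no lower limit. SYT9, counted among the rises, entered the test only through its DHT+WBM reads. Without DHT+WBM replicate 3, only 3 genes of the list rose.

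Regulators of the neuroendocrine lineage were mixed, with 9 of 15 tested, 3 higher, 4 lower and a median of -0.50. PEG10, a retrotransposon-derived gene raised in neuroendocrine prostate cancer, averaged 99.2 ± 1.57 CPM in DHT+WBM and 164 ± 1.97 CPM in DHT, a log2 fold change of -0.73 ± 0.04. AURKA, a mitotic kinase, fell 1.92-fold and EZH2, a histone methyltransferase, fell 1.47-fold. Both are also known as proliferation genes. HES6, a helix-loop-helix factor, rose 1.31-fold to 33.7 ± 1.01 CPM. The lineage factors INSM1 and NEUROD1 were low, with at most 5 reads for INSM1 and at most 1 for NEUROD1 in any library.

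All 16 genes of REST partners and of proteins that control REST could be tested; 2 rose, 6 fell and the median was -0.00446. RCOR1, the scaffold that joins REST to its enzymes, averaged 125.6 ± 0.36 CPM in DHT+WBM and 126.5 ± 5.21 CPM in DHT. Its log2 fold change of -0.01 did not pass the test and turned to 0.021 with upper-quartile factors, 0.036 with library totals alone and 0.022 without DHT replicate 2. KDM1A, the histone demethylase bound by RCOR1, fell 1.15-fold, and the deacetylase gene HDAC2 fell 1.19-fold. CTDSP1 and CTDSPL, small phosphatases that act with REST, fell 1.47-fold and 1.26-fold. Of the 2 rises, only 1 passed with DESeq2, with no low-count filter, and without DHT+WBM replicate 1, 2 or 3 or DHT replicate 3.

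Of 16 further neuronal genes known as REST targets, 8 could be tested; 6 of these were higher in DHT+WBM, 0 were lower, and GRIN1 and UNC13A missed the threshold. VGF stands in this list and among the granins. The markers were left out of this list whatever their call. The fall of SYT4 and the rises of ENO2 and TUBB3 are therefore not counted here. The count of higher genes was 4 by DESeq2 and without DHT+WBM replicate 1 or 2 or DHT replicate 1. The median log2 fold change of the tested genes was 0.46, against 0.00286 over all tested genes, of which 29.2% were called higher. CELSR3, a neuronal cadherin, averaged 20.4 ± 1.31 CPM in DHT+WBM and 9.29 ± 1.37 CPM in DHT, which differed by 1.13 ± 0.09 on the log2 scale (edgeR adjusted p = 4.85e-14). BEX1, a brain-expressed X-linked gene, rose 1.63-fold, and SCN2A, a neuronal sodium channel gene, rose 1.81-fold to 1.76 ± 0.25 CPM. GDAP1, a mitochondrial gene of neurons, rose 1.22-fold. The other 8 genes, among them STMN2, GRIA2 and SYN1, held at most 8 reads in any library, so the list is read only through the genes that LNCaP expresses. The summed level of all 16 was 99.3 to 105 CPM in DHT+WBM and 73.1 to 73.7 CPM in DHT.

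Tubulins, neurofilaments and microtubule-associated proteins other than TUBB3 were tested in 17 of 24 cases, and 9 rose and 5 fell, with a median of 0.28. The rises numbered 7 by DESeq2 and without DHT+WBM replicate 2, and 10 with library totals alone and without DHT replicate 3. The list holds general tubulins such as TUBB and TUBA1B beside neuronal genes. MAP1B, a microtubule-associated protein of growing axons, averaged 772 ± 35.2 CPM in DHT+WBM and 487 ± 30.6 CPM in DHT, a 1.59-fold rise. STMN1, which destabilises microtubules and is abundant in dividing cells, fell 1.46-fold to 137 ± 2.32 CPM. Neuronal members also fell: MAP2, a microtubule-associated protein of dendrites, averaged 123 ± 1.71 CPM in DHT+WBM and 166 ± 8.12 CPM in DHT, and NEFL, the neurofilament light chain gene, averaged 5.65 ± 0.44 CPM in DHT+WBM and 7.94 ± 0.80 CPM in DHT. DCX, a marker of immature neurons named here after its values were seen, had 17 to 18 reads per DHT+WBM library and 4 to 6 per DHT library. It is counted among the 9 rises but entered the test only through its DHT+WBM reads, so its call adds nothing beyond those counts.

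**Figure D4:**
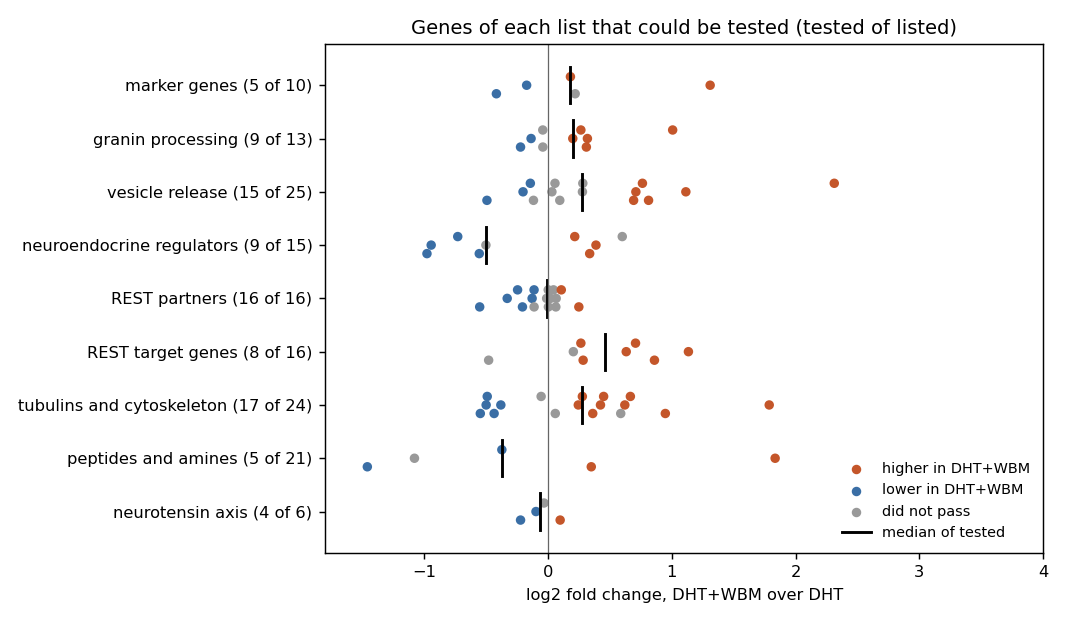
Log2 fold change of DHT+WBM over DHT for each testable gene (point) of the marker set and 8 related lists, with the number tested of the number listed in brackets and a black line at the median of the tested genes. Tested REST target genes, a list without the markers, lie mostly right of 0, and neuroendocrine regulators have their median at -0.50.

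Peptides, amine enzymes and surface markers were mostly silent, with 5 of 21 tested and 7 at 0 in all 6 libraries. Of the 5, 2 rose and 2 fell, and the rise of PTHLH entered the test only through its DHT+WBM reads. With the 1 CPM filter, 1 gene of the list rose. MAOA, the monoamine oxidase A gene, rose 1.27-fold to 748 ± 15.4 CPM. GAL, the galanin gene, fell 1.30-fold to 37.7 ± 1.06 CPM. DDC, which makes dopamine and serotonin and is raised in many neuroendocrine tumours, averaged 6.69 ± 1.06 CPM in DHT+WBM and 18.4 ± 0.16 CPM in DHT, a log2 fold change of -1.46 ± 0.09. NCAM1, a surface marker used in pathology, had 10 to 11 reads in DHT+WBM libraries and 3 to 5 in DHT libraries and was not tested.

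The receptors of neurotensin were as rare as the peptide, with at most 1 read for NTSR1 and 2 for NTSR2 in any library. SORT1, the sorting receptor sortilin, was 1.07-fold higher (edgeR adjusted p = 0.0469). Its call was lost without any 1 library, where the adjusted p was 0.0538 to 0.192, and by DESeq2 (adjusted p = 0.0860), with RLE factors (edgeR adjusted p = 0.0512), with no low-count filter (0.12) and with the 1 CPM filter (0.0514). Of the peptidases that cleave neurotensin, THOP1 fell 1.17-fold, and NLN, with a log2 fold change of -0.10, lost its call without DHT+WBM replicate 1 or 2 and without DHT replicate 2 or 3 (edgeR adjusted p = 0.0739, 0.0814, 0.0812 and 0.0587), and with upper-quartile factors (0.142) or library totals alone (0.263).

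The libraries had the character of the named line. Total counts were 19127357 to 21490953 per library. Luminal markers summed to 3204 to 3265 CPM in DHT+WBM and 5117 to 5368 CPM in DHT, with 6 of 10 lower and 1 higher, while the epithelial genes EPCAM and KRT18 did not pass the test. Among 14 markers of basal, fibroblast, immune and endothelial cells, 4 were tested, 1 rose and 1 fell. The falls numbered 2 with RLE factors, with no low-count filter, with the 1 CPM filter and without DHT replicate 2. Their summed level was 97.1 to 105 CPM in DHT+WBM and 39.0 to 42.6 CPM in DHT, of which the lysosomal and macrophage gene CD68 held 84.5 ± 4.61 CPM in DHT+WBM and 23.0 ± 1.15 CPM in DHT. The fibroblast collagen gene COL1A1 averaged 11.2 ± 0.38 CPM in DHT+WBM and 10.5 ± 0.81 CPM in DHT and did not pass the test. COL3A1, another fibroblast collagen gene, averaged 2.179 ± 0.192 CPM in DHT+WBM and 4.03 ± 0.39 CPM in DHT and fell. The endothelial gene VWF averaged 2.16 ± 0.09 CPM in DHT+WBM and 2.83 ± 0.49 CPM in DHT and did not pass the test. KRT5, COL1A2 and CDH5 were at 0 in all libraries, and PTPRC held at most 1 read. The other untested markers, KRT14, TP63, DCN, LUM, CD3E and PECAM1, held at most 5 reads in any library. The part of the luminal, CD68 and COL3A1 differences in the marker values was not tested.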

How the data were processed

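RNA of 6 LNCaP libraries was sequenced, 3 given DHT+WBM and 3 given DHT, with groups and replicate numbers taken from the sample titles. The deposited table holds un-normalised whole-number counts of reads for each gene, with its hg19 position and its length. The submitters' processing notes name edgeR 3.28.1, HTSeq 0.6.0, STAR 2.6.0 and bcl2fastq 2.18.0.12, with no role or order. For annotation and strand setting, nothing is given in the sources used here.

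Counts were tested in R 4.3.3 with edgeR 4.0.16: filterByExpr (minimum count 10, total 15; 13466 of 23354 genes kept), TMM factors of 0.979 to 1.02, and a two-sided quasi-likelihood F-test of DHT+WBM against DHT with no covariate. P-values were adjusted by Benjamini-Hochberg over all tested genes, and "rose" or "fell" means an adjusted p under 0.05. A positive log2 fold change means higher in DHT+WBM, and its SE comes from the F statistic. Genes below the filter have counts and exact binomial intervals only. Fitting was tested on simulated data. Replicates of a group differed beyond counting noise (chi-square per degree of freedom 1.73 to 4.29).

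The markers and lists were chosen with earlier results of these data known. Named genes were all markers, up to 4 genes with the smallest adjusted p per list at a mean of at least 1 CPM, and a fixed set of relatives (RCOR1, KDM1A, beta-tubulins, enolases, neurotensin receptors); others serve as examples chosen after their values were seen. Not every gene under this rule is reported here. Alternatives were other scalings, filters, DESeq2 1.42.0, limma-voom (limma 3.58.1), a replicate block, a stricter threshold, length-scaled shares and leaving out each library.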

Additional observations from a re-analysis of the deposited data

How the results depend on the processing

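With RLE, upper-quartile or no scaling factors, other filters, DESeq2, limma-voom, the replicate block and each library left out, SYT4, ENO2 and REST kept their direction and call in all 14 settings, with log2 fold changes of -0.44 to -0.37, 1.19 to 1.37 and -0.21 to -0.13. SYP passed in none of the 14, with an adjusted p of 0.306 to 0.741. TUBB3 ranged from 0.13 to 0.23 and passed in 12 of 14. Leaving out single libraries, 1 to 2 of the markers were higher and 2 lower, and over all genes 3440 to 3791 were higher and 3642 to 3789 lower. The log2 fold change of RCOR1 turned to 0.021 with upper-quartile factors and 0.036 with library totals, and ran from -0.033 to 0.022 with single libraries left out; the cause was not tested. The median log2 fold change of all genes was at most 0.049, with library totals. With the replicate number as a block, 4079 genes were higher and 4030 lower, against 3928 and 3909 without it, and the marker calls were the same; of the other-cell markers, 2 were lower with the block, against 1 without it. Deviations of same-numbered libraries correlated at 0.05, 0.04 and 0.02, and those of other pairs at -0.086 to 0.047. DHT+WBM replicate 3 correlated best with DHT replicate 2. Values this small cannot show whether the replicate numbers pair the libraries. The difference in share, DHT+WBM minus DHT, was 0.498 percentage points for TUBB3 and 0.455 for ENO2, and 0.185 and 0.551 per gene length. Depth leaves CHGA, CHGB, SCG2, SCG5 and NTS unjudged.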
